A study of Mus musculus with 6 samples.

Results

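Tpt1, Rack1, Pabpc1, Naca, Btf3, Nap1l1, Pfdn5 and Cox4i1 are 8 genes whose mRNAs are known or thought to begin with a 5′ terminal oligopyrimidine (TOP) tract, but which encode neither a ribosomal protein nor an elongation or initiation factor. They were picked by gene symbol from a table of 17348 genes, and all 8 were found there. The question was whether their levels in Ybx1-deficient cortex followed those of the 79 ribosomal protein mRNAs, library by library. RNA had been sequenced from mouse cortex at E18.5 in 3 control (Ctrl) and 3 Ybx1 cKO libraries. The cKO embryos carried Nestin-Cre and floxed Ybx1 alleles (Ybx1 fl/fl), so that Cre, active in the neural lineage, removes exons of Ybx1 there but not in cells of other origin, such as microglia. The Ctrl samples are labelled WT, while the study calls its controls both Ybx1 fl/fl and wild type littermates. An effect of Nestin-Cre itself therefore cannot be told apart from that of the deletion. Whether a library came from 1 embryo or from several was not given in the sources used here, so p-values measure only the spread between these libraries.

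TOP mRNAs start with a C followed by an uninterrupted run of pyrimidines directly behind the cap. The run lets the cell raise or lower the translation of the whole class together with growth signals, through mTORC1 and the cap-binding repressor Larp1. The ribosomal proteins and many translation factors belong to the class, and so do some mRNAs with other tasks. Ybx1 is a cold shock domain protein that binds mRNA.

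The starts of 6 of the 8 genes are shown because the pyrimidine tract at the start defines the class. Capitals mark a run of C and T that opens with C and lies within the first 40 bases of a coding transcript of GENCODE M21 (GRCm38), read 5′ to 3′ on the transcribed strand. All 6 stretches lie in exon 1, inside the 5′ UTR.
Rack1: CTTTTTCTCCacagggtcgtggtggcagcc
Pabpc1: CCCCTTCTCCCCggcggttagtgctgagag
Nap1l1: CTTTTTTagcgccatctgctcgcggcgccg
Cox4i1: ggcggggCTTCCCTgattcccgcgatgctt
Pfdn5: ccaggcggCTTCCTCTTCggcagtcctcct
Btf3: acttccggCCTCCCTCTagctgccatcttg

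The Rack1 stretch lies at chr11:48800360-48800389 on the plus strand (Rack1-201), that of Pabpc1 at chr15:36608944-36608973 on the minus strand (Pabpc1-201) and that of Nap1l1 at chr10:111473227-111473256 on the plus strand (Nap1l1-207). In these 3 genes the capitals begin at the first annotated base. The others are at chr8:120668222-120668251 on the plus strand (Cox4i1-201), chr15:102326152-102326181 on the plus strand (Pfdn5-202) and chr13:98316964-98316993 on the minus strand (Btf3-205). There the tract begins at base 8 in Cox4i1, base 13 in Pfdn5 and base 22 in Btf3, downstream of the annotated start. In the 2 genes not shown the tract begins further from the start than in these 6. Where a gene has several transcripts, the one shown was chosen for a tract at its first base, or otherwise for its longest tract.

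A run of 5 or more bases at the first annotated base of any coding transcript was found in 3 of 8 members (37.5%), in 29.1% of the ribosomal protein genes and in 6.0% of 13135 tested genes. A run of 7 or more bases anywhere in the first 40 bases was found in 8 of 8 members, in 62.0% of the ribosomal protein genes and in 35.3% of the tested genes. In the RefSeq promoter table, which held 6 of the 8 members, a run of 5 or more bases began within 25 bases of the start in 5 of 6 members, 84.5% of the ribosomal protein genes and 59.3% of all 27025 genes. With the first base at the start itself these numbers were 2 of 6, 24.1% and 3.01%, and with a run of 7 or more bases they were 3 of 6, 65.5% and 27.9%. Such runs are common near starts, and these matches describe the annotation, not the start sites used in this tissue.

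Libraries held 15091951 to 16885451 estimated counts, and 13570 genes passed a filter on low counts. Ybx1 measured 1015, 1297 and 956 CPM (normalized counts, scaled by library size) in Ctrl replicates 1, 2 and 3 and 24.0, 24.8 and 24.9 CPM in cKO replicates 1, 2 and 3, which is 2.25% of the Ctrl mean. In all, 10 genes passed an adjusted p of 0.05 in edgeR's quasi-likelihood test, 7 of them lower in cKO (0.0516% of the genes tested). The 4 Y-linked genes tested are among the 7, with at least 352 counts in each Ctrl and at most 22 in each cKO library, so sex and genotype of the embryos cannot be told apart. Ctrl replicate 2 stood apart by transcript length: relative to the Ctrl mean, the median of the 1341 shortest tested genes was 0.32 higher (log2) in it and that of the 1339 longest 0.38 lower, while these medians lay between -0.22 and -0.09 and between 0.11 and 0.24 in the other 5 libraries. Markers of radial glia and of deep- and upper-layer neurons were present in every library, with 8, 6 and 5 of their listed genes tested, whereas 0 of 5 choroid plexus markers were and Ttr, Kl and Folr1 were at or under 3 counts. Of 12 marker lists, summed levels separated the groups only for the 5 endothelial genes, at 211 to 218 CPM in Ctrl and 220 to 301 CPM in cKO. The part of these cells in the results was not tested.

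All 8 members were well measured, with 989 counts in the lowest library of Pfdn5 and 29341 in the highest of Tpt1. Per transcript length (TPM, the deposited values), the order in Ctrl was Tpt1, Rack1, Cox4i1, Naca, Btf3, Pfdn5, Nap1l1 and Pabpc1. Tpt1 stood at 4913 ± 509 TPM (SD, n = 3), the 6th most abundant gene, and Pabpc1 at 317 ± 26.2 TPM. Rack1 (1193 ± 178), Cox4i1 (1127 ± 234), Naca (1046 ± 40.7) and Btf3 (1013 ± 86.1 TPM) overlapped with their neighbours in this order, as did Nap1l1 (360 ± 22.8) with Pabpc1. In cKO, Rack1 stood at 649 ± 12.5 TPM, below Cox4i1, Btf3 and Naca and without overlap with its neighbours. Tpt1 went from rank 6 to 13 and Rack1 from rank 104 to 195 among all genes, whereas Naca stayed at 122 and 123.

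**Figure D1:**
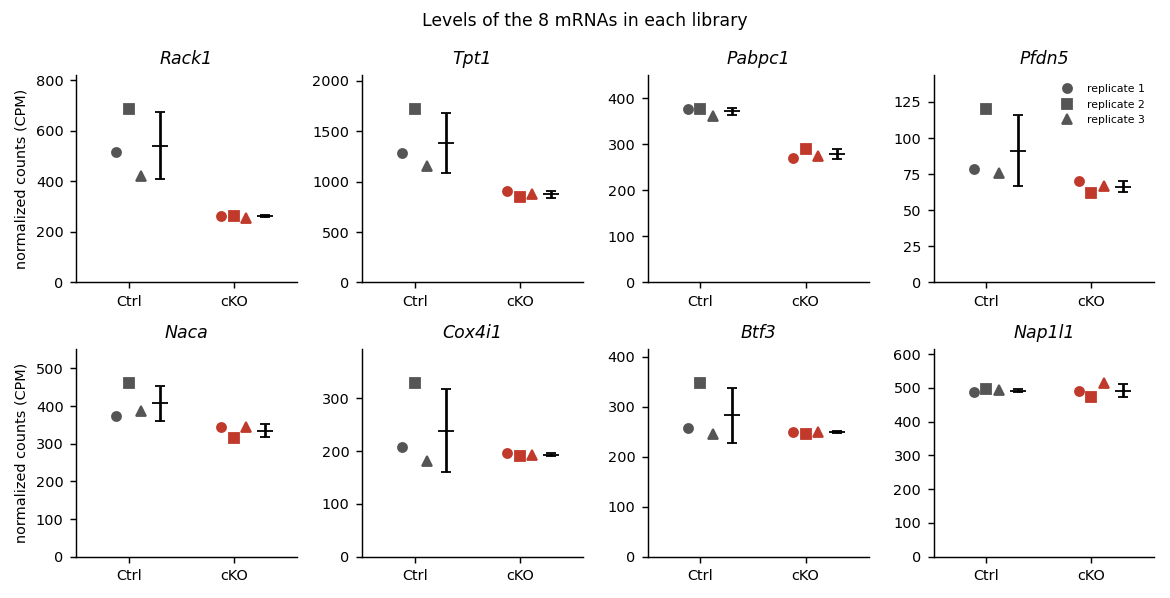
Normalized counts (CPM) of the 8 mRNAs in the 3 Ctrl (grey) and 3 cKO (red) libraries, with 1 marker shape per replicate number and the mean ± SD in black. The Ctrl and cKO points are apart for Rack1, Tpt1, Pabpc1, Pfdn5 and Naca and overlap for Cox4i1, Btf3 and Nap1l1, and Ctrl replicate 2 (square) is well above the other Ctrl points in 6 panels but not in those of Pabpc1 and Nap1l1.

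Among the members, Rack1 and Tpt1 differed most between the groups, and Pabpc1 was lower by a smaller but tightly measured amount. The group means of Btf3, Cox4i1 and Nap1l1 differed by less than the SD of the Ctrl libraries. All 8 log2 fold changes were below 0 (Nap1l1 at -0.00013), with a median of -0.36, beside -0.60 for the 79 ribosomal protein genes and 0.0027 for all genes tested. Without Ctrl replicate 2 the medians were -0.20 for the members and -0.35 for the ribosomal protein genes. None of the 8 members passed an adjusted p of 0.05 with all 6 libraries. At an unadjusted p under 0.05, 5 of 8 members were lower in cKO, against 3.49% of all genes tested, and 69 of 79 ribosomal protein genes. These counts were 5 and 72 without Ctrl replicate 1 (2.77% of all genes), 5 and 69 without Ctrl replicate 2 (6.55%) and 6 and 74 without Ctrl replicate 3 (7.97%). They were 3 and 51 without cKO replicate 1 (2.23%), 3 and 56 without cKO replicate 2 (2.23%) and 3 and 63 without cKO replicate 3 (1.89%). Every cKO library was below every Ctrl library in 5 of 8 members, against 6.93% of the genes tested. DESeq2, edgeR without Ctrl replicate 2, and edgeR corrected for the length and GC content of transcripts each called the same 3 members lower, namely Rack1, Tpt1 and Pabpc1. The shares of all genes that they called lower were 0.563%, 0.701% and 1.24%, and of the 79 ribosomal protein genes they called 21, 23 and 44. Since these are bulk samples, fewer cells of a type and less RNA per cell cannot be told apart.

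Rack1 is a WD-repeat scaffold protein that sits on the small ribosomal subunit and brings kinases to it. Its level was 514, 685 and 423 CPM in Ctrl replicates 1, 2 and 3 and 263, 264 and 257 CPM in cKO replicates 1, 2 and 3. The groups were apart, though in CPM the gap between the lowest Ctrl and the highest cKO library was smaller than that between Ctrl replicates 1 and 2. The cKO libraries agreed to within 1.03-fold while the Ctrl libraries spread 1.62-fold. The cKO mean was 48.3% of the Ctrl mean, and edgeR gave a log2 fold change of -1.05, with 0.169 as its standard error (SE) and 0.108 as its adjusted p. The two-sided exact permutation p was 0.1, the smallest that 3 against 3 libraries allow. Without Ctrl replicate 2 the log2 fold change was -0.84 (adjusted p = 0.00232 by edgeR), and without Ctrl replicate 3 it was -1.20 (adjusted p = 0.0149). The adjusted p ranged from 3.27e-06 to 0.810 over 18 alternatives, 6 of which called Rack1 lower, and all 18 gave a negative value.

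Tpt1 encodes the translationally controlled tumor protein, a growth-related factor whose mRNA is among the most abundant in many cells. It measured 1281, 1718 and 1155 CPM in Ctrl replicates 1, 2 and 3 and 906, 843 and 873 CPM in cKO replicates 1, 2 and 3. The groups did not overlap, and the gap between the lowest Ctrl and the highest cKO library was smaller than that between Ctrl replicates 1 and 2. The cKO mean was 63.1% of the Ctrl mean, and edgeR gave -0.66 for the log2 fold change (SE 0.155, adjusted p = 0.357, exact permutation p = 0.1). Without Ctrl replicate 2 it was -0.48, with a standard error of 0.0832 and an adjusted p of 0.0290 by edgeR. Over 18 alternatives the adjusted p ranged from 0.00359 to 0.9999, with 5 calls, and the value was negative in each. Tpt1, like the ribosomal protein genes, has processed pseudogenes of near-identical sequence, and how reads shared with them were counted is not given in the sources used here.

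Pabpc1 is the main cytoplasmic poly(A)-binding protein, which joins the mRNA tail to the initiation complex at the cap. It had 376, 376 and 362 CPM in Ctrl replicates 1, 2 and 3 and 271, 290 and 275 CPM in cKO replicates 1, 2 and 3. Both groups were narrow, and unlike most members Pabpc1 was no higher in Ctrl replicate 2 than in Ctrl replicate 1. On the log2 scale cKO differed from Ctrl by -0.41, with a standard error of 0.0997 (edgeR, adjusted p = 0.380, exact permutation p = 0.1). Leaving out Ctrl replicate 2 hardly moved the value (-0.41), while the adjusted p went to 0.0414 and the standard error to 0.0766. The adjusted p ranged from 0.00750 to 0.9999 over 18 alternatives, with 5 calls.

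Naca and Btf3 encode the alpha and beta subunits of the nascent polypeptide-associated complex, which binds chains as they leave the ribosome. Naca measured 373, 460 and 388 CPM in Ctrl replicates 1, 2 and 3 and 344, 314 and 344 CPM in cKO replicates 1, 2 and 3. The highest cKO libraries came close to the lowest Ctrl library without reaching it. Its log2 fold change was -0.28 (SE 0.119, adjusted p = 0.727 by edgeR), and -0.19 without Ctrl replicate 2. Btf3 had 257, 347 and 245 CPM in Ctrl replicates 1, 2 and 3 and 250, 246 and 250 CPM in cKO replicates 1, 2 and 3. Only Ctrl replicate 2 stood out, and the other 5 libraries lay together. Its log2 fold change was -0.19 (SE 0.143, adjusted p = 0.857 by edgeR, exact permutation p = 0.4), and -0.01 without Ctrl replicate 2. Both subunits kept their sign in all 18 alternatives and passed in none.

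Pfdn5 is a subunit of prefoldin, the co-chaperone that hands actin and tubulin chains to the cytosolic chaperonin. It was the lowest member by read number, with 78.2, 120 and 75.9 CPM in Ctrl replicates 1, 2 and 3 and 70.2, 62.3 and 66.5 CPM in cKO replicates 1, 2 and 3. The groups did not overlap, but apart from Ctrl replicate 2 they were close. The log2 fold change was -0.46 (SE 0.177, adjusted p = 0.658 by edgeR), and -0.22 without Ctrl replicate 2.

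Cox4i1 is the nuclear-encoded subunit IV of cytochrome c oxidase, the last enzyme of the mitochondrial respiratory chain. It measured 207, 328 and 181 CPM in Ctrl replicates 1, 2 and 3 and 196, 191 and 193 CPM in cKO replicates 1, 2 and 3. The cKO libraries lay between Ctrl replicates 1 and 3, and Ctrl replicate 2 alone was higher. The log2 fold change of -0.31 (SE 0.201, adjusted p = 0.840 by edgeR, exact permutation p = 0.5) became -0.01 without that library, and -0.47 without Ctrl replicate 3.

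Nap1l1 is a histone chaperone of the nucleosome assembly protein family. It had 487, 498 and 492 CPM in Ctrl replicates 1, 2 and 3 and 491, 473 and 513 CPM in cKO replicates 1, 2 and 3. The groups overlapped entirely. The log2 fold change was -0.00013 (SE 0.101, 95% interval -0.23 to 0.23, adjusted p = 0.9998 by edgeR).

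Set beside the ribosomal protein mRNAs in each library, the members split by 2 features that these mRNAs combined. On the log2 scale relative to the Ctrl mean, the median ribosomal protein gene stood at -0.13, 0.41 and -0.26 in Ctrl replicates 1, 2 and 3 and at -0.57, -0.58 and -0.51 in cKO replicates 1, 2 and 3. It thus was high in Ctrl replicate 2 and low in all cKO libraries. Tpt1 ran at -0.09, 0.33 and -0.24 and then at -0.59, -0.70 and -0.64, inside the quartiles of the ribosomal protein genes in 4 of 6 libraries. Rack1 ran at -0.04, 0.37 and -0.33 in Ctrl and at -1.01, -1.01 and -1.05 in cKO, where it lay below their lower quartile each time. Btf3 ran at -0.12, 0.31 and -0.19 and then at -0.16, -0.18 and -0.16. It was close to the ribosomal protein genes in Ctrl and above their upper quartile in each cKO library. Nap1l1 lay between -0.06 and 0.06 in all libraries and inside those quartiles in 0 of 6.

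**Figure D2:**
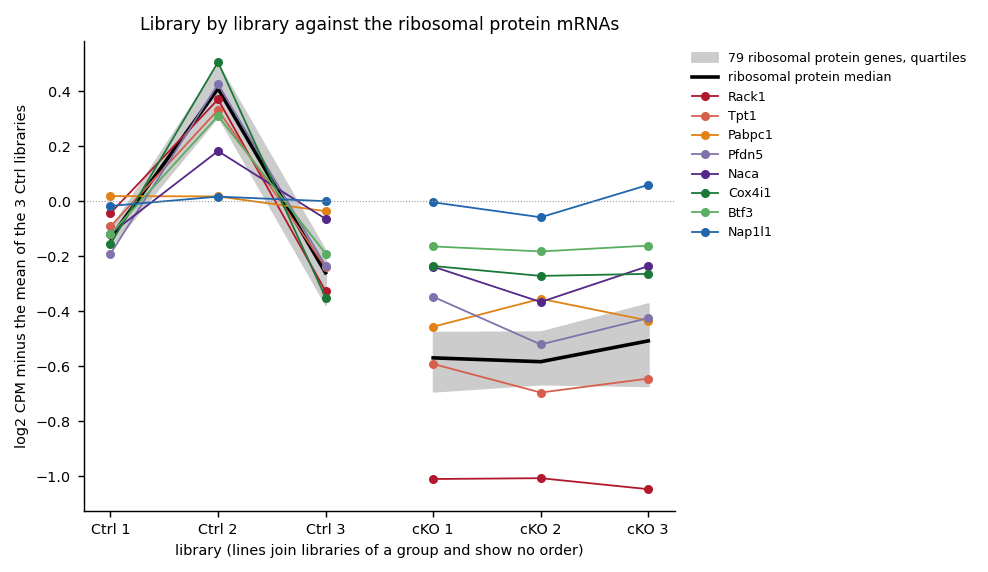
Log2 CPM minus the mean of the 3 Ctrl libraries for each of the 8 mRNAs (colored lines) and for the 79 ribosomal protein genes (black line, median; grey band, quartiles) in the 6 libraries. In the cKO libraries Tpt1 runs in the lower part of the band or just under it, Rack1 runs near -1.0 below it and Nap1l1 near 0 above it, while in Ctrl replicate 2 all but Pabpc1, Nap1l1 and Naca reach the band.

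The first of these features is the excess of Ctrl replicate 2 over the mean of Ctrl replicates 1 and 3. Its log2 size was 0.61 at the median of the ribosomal protein genes and 0.017 at that of all genes tested. It was above 0 in 78 of 79 ribosomal protein genes and in 6945 of 13570 genes tested. It was 0.76 for Cox4i1, 0.64 for Pfdn5, 0.56 for Rack1, 0.50 for Tpt1, 0.47 for Btf3 and 0.27 for Naca. Pabpc1 and Nap1l1, both at 0.03, had next to none. They are also the longest members, with transcripts of 2817 and 3934 bases, while the other members have 745 (Cox4i1) to 1447 (Rack1) bases and the ribosomal protein genes a median of 761. The part of transcript length in this excess was not tested gene by gene. The excess was not limited to the members and the ribosomal protein genes. Relative to the Ctrl mean, the median of the 1341 shortest tested genes stood at -0.09, 0.32 and -0.22 in Ctrl replicates 1, 2 and 3. In each cKO library that median was -0.11. The excess lay between 0.28 and 1.11 in 12 other genes of cytochrome c oxidase and between 0.19 and 0.65 in 5 other prefoldin subunits. The value of 1.11 is that of the rare Cox4i2, with a mean of 0.881 CPM in Ctrl. Among the listed relatives of Pabpc1, Nap1l1, Rack1, Naca and Btf3 the excess had either sign.

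The second feature is the cKO mean against Ctrl replicates 1 and 3 alone. This log2 difference was -0.35 at the median of the ribosomal protein genes and 0.0054 at that of all genes tested. It was below 0 in 79 of 79 ribosomal protein genes and in 6627 of 13570 genes tested. It was -0.84 for Rack1, -0.48 for Tpt1 and -0.41 for Pabpc1, which is beyond the median ribosomal protein gene, and only 3, 15 and 28 of the 79 lay lower. Pfdn5 at -0.22 and Naca at -0.19 came next. It was -0.01 for Btf3, -0.0040 for Cox4i1 and 0.01 for Nap1l1, and all 79 ribosomal protein genes lay lower than these 3. So Rack1 and Tpt1 shared both features with the ribosomal protein mRNAs, Pfdn5 shared both with a smaller cKO difference, Naca had both at a smaller size, Pabpc1 had the cKO difference alone, Btf3 and Cox4i1 the excess alone, and Nap1l1 neither. The excess alone is not particular to these mRNAs, since short genes in general were also high in Ctrl replicate 2. These are descriptions of 6 libraries, without a test, and Ctrl replicate 2 was singled out from the same data.

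**Figure D3:**
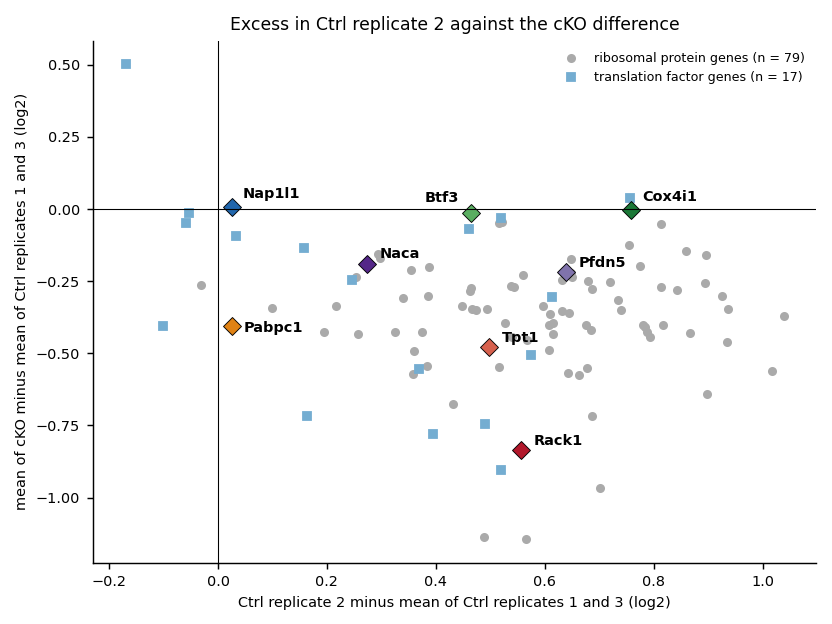
Excess of Ctrl replicate 2 over the mean of Ctrl replicates 1 and 3 (x axis, log2) against the cKO mean minus the same 2 Ctrl libraries (y axis, log2) for the 8 mRNAs (diamonds), 79 ribosomal protein genes (grey circles) and 17 translation factor genes (blue squares). Rack1 and Tpt1 lie in or below the cloud of ribosomal protein genes, Pabpc1 at its left edge, and Btf3, Cox4i1 and Nap1l1 along y = 0 above it.

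The difference from the ribosomal protein genes was also tested directly, with libraries scaled to those 79 genes in place of all genes. On that scale the median gene of the table moved to 0.53, so that a gene with no change in CPM lies near that value, and 47.9% of all genes were higher in cKO at an unadjusted p under 0.05 while 0.0958% were lower. An adjusted p of 0.05 was passed by 0.059% of the genes in either direction and by none of the 8 members. Rack1 was the member furthest below the ribosomal protein genes, at -0.47 (SE 0.174, 95% interval -0.87 to -0.07, adjusted p = 0.0878 by edgeR). Nap1l1 was furthest above, at 0.53 (SE 0.214, 95% interval 0.04 to 1.02, adjusted p = 0.0949). Tpt1 differed by -0.09 (95% interval -0.48 to 0.30), Pabpc1 by 0.11 (-0.37 to 0.60) and Pfdn5 by 0.12 (-0.24 to 0.49). These 3 intervals hold 0 but reach to -0.48 for Tpt1, 0.60 for Pabpc1 and 0.49 for Pfdn5, and are too wide to show that the members moved like the ribosomal protein genes. Naca (0.26), Cox4i1 (0.29) and Btf3 (0.38) did not pass either.

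With the length and GC correction, 4 members differed from the ribosomal protein genes by the same test. Rack1 was lower, at -0.53 (SE 0.0868, adjusted p = 0.00216 by edgeR), in which direction 0.239% of all genes passed. Nap1l1 at 0.36 (adjusted p = 0.00691), Cox4i1 at 0.35 (adjusted p = 0.00682) and Btf3 at 0.34 (adjusted p = 0.00527) were higher than the ribosomal protein genes, as were 71.6% of all genes, so most genes share these 3 calls. Without Ctrl replicate 2 the same 4 passed, at -0.48, 0.36, 0.35 and 0.34, where 0.27% of all genes passed as lower and 52.7% as higher. Nap1l1 also passed without Ctrl replicate 3, at 0.68, as did 49.3% of all genes in that direction. Over 13 alternatives the adjusted p ranged from 0.000957 to 0.231 for Rack1, from 0.00691 to 0.232 for Nap1l1, from 0.00682 to 0.351 for Cox4i1 and from 0.00527 to 0.254 for Btf3. The direction of these 4 was kept in all 13. Tpt1, Naca and Pfdn5 passed in none of the 13, nor did Pabpc1, whose sign turned to -0.05 without Ctrl replicate 2 and to -0.0058 with the correction.

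**Figure D4:**
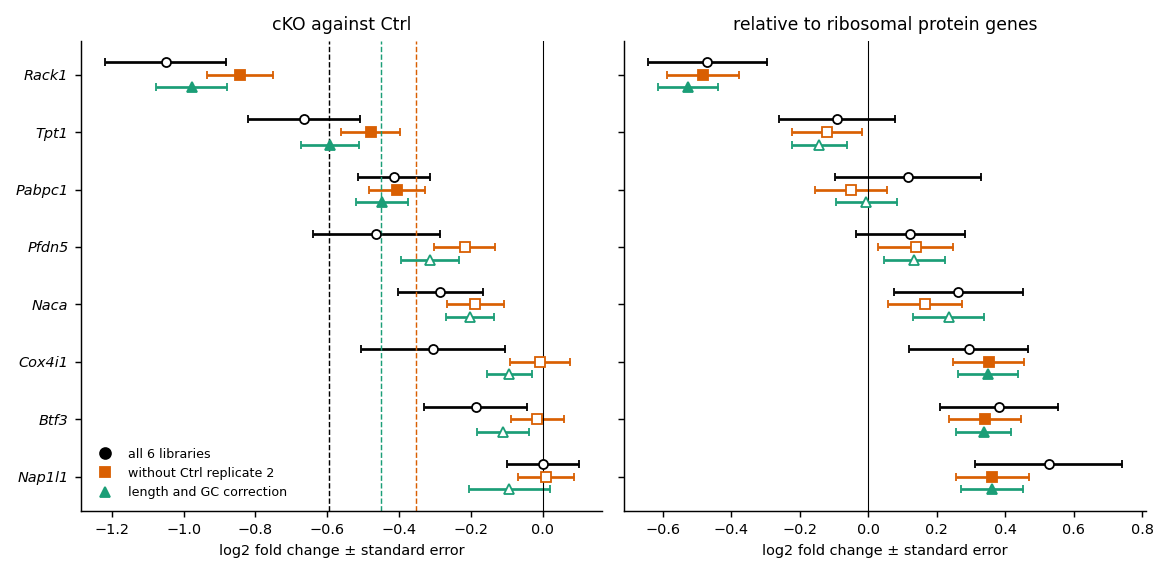
Log2 fold change ± standard error of the 8 mRNAs in cKO against Ctrl (left) and relative to the ribosomal protein genes (right), with all 6 libraries (black circles), without Ctrl replicate 2 (orange squares) and with the length and GC correction (green triangles). Filled markers passed an adjusted p of 0.05 and dashed lines on the left give the ribosomal protein median at each setting. Rack1, Tpt1 and Pabpc1 are filled on the left in 2 of the 3 settings, and Rack1, Cox4i1, Btf3 and Nap1l1 on the right.

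Other genes of the class spread widely as well. All 79 ribosomal protein genes had log2 fold changes below 0, from -0.24 (Rps13) to -1.36 (Rpsa), and 2 passed an adjusted p of 0.05 by edgeR, Rpsa and Rplp0. Rpsa and Rplp0 were 2 of the 3 ribosomal protein genes with a lower log2 fold change than Rack1, while 28 were lower than Tpt1, 61 than Pfdn5, 67 than Pabpc1, 74 than Naca and Cox4i1, and 79 than Btf3 and Nap1l1. Of the 17 listed translation factors, 0 passed an adjusted p of 0.05, 9 were lower and 1 was higher at an unadjusted p under 0.05, and the median was -0.33. Eef1g, a subunit of the exchange complex that reloads Eef1a1 with GTP, lay at one end with 566 ± 126 CPM in Ctrl and 264 ± 11.4 CPM in cKO (SD, n = 3 each), a log2 fold change of -1.10 (adjusted p = 0.0770 by edgeR). The X-linked Eif2s3x lay at the other end, at 0.56, and sex and genotype cannot be told apart for it either. The next highest listed factor lay at 0.0030. Of 7 further genes listed as TOP mRNAs, 3 were tested: Hnrnpa1, an RNA-binding splicing factor, was at -0.21, Vim, an intermediate filament protein of radial glia, at -0.05 and Npm1, a nucleolar chaperone, at 0.0031, none of them passing the test. Gas5, Snhg1, Snhg8 and Snhg12 were not analysed here.

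The partners and relatives of the members in their own complexes and families lay mostly near 0, and none of them passed an adjusted p of 0.05. Beside Pabpc1, Pabpc4, another cytoplasmic poly(A)-binding protein, was at -0.32 (adjusted p = 0.580 by edgeR) and Paip2, an inhibitor of Pabpc1, at 0.26 (adjusted p = 0.731). The 7 listed genes had a median of -0.07, and the lowest was the rare Pabpc1l at -0.59, with 1.61 CPM in Ctrl. The 5 other prefoldin subunits lay between -0.32 (Pfdn6) and -0.0061 (Pfdn4), all nearer to 0 than Pfdn5. Of 12 other genes of cytochrome c oxidase, 8 were below 0 and the median was -0.07. Leaving Cox7a2l aside, the lowest of them lay at -0.31, as Cox4i1 did. Cox7a2l, a factor in respiratory supercomplexes, stood apart from Cox4i1 and its partners with 137 ± 27.8 CPM in Ctrl and 79.1 ± 4.17 CPM in cKO (SD, n = 3 each), a log2 fold change of -0.79 (adjusted p = 0.210 by edgeR). At the other end Cox4i2, the second isoform of subunit IV, was at 0.28 with a mean of 0.881 CPM in Ctrl. The relatives of Nap1l1 ranged from -0.21 (Nap1l3) to -0.03 (Set). Btf3l4 (0.03) and Nacad (-0.09), relatives of Btf3 and Naca, lay near 0, as did the G-beta proteins, WD-repeat relatives of Rack1, from -0.12 (Gnb2) to 0.11 (Gnb4).

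Among the genes outside the 8 whose levels over the 6 libraries were most like the members' mean were Ftl1, the ferritin light chain (Pearson r = 0.998), Rpl35 (0.998), Rpl6 (0.997) and Rpl41 (0.997). Among the 100 most alike, 39 were ribosomal protein genes and 3 translation factors. Of all 13570 genes tested, 79 were ribosomal protein genes and 17 were listed translation factors. Taken as deviations from the group means, which leaves out the difference between Ctrl and cKO, the most alike were Atp5e, Psma6, Mrto4, Psma7 and Hmgn1 (each 0.999). On that scale 15 of the 100 most alike were ribosomal protein genes and 2 were translation factors. These r are descriptions over 6 libraries that share the high values of Ctrl replicate 2.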

How the data were processed

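For each gene and each of 6 E18.5 cortex libraries the authors deposited 3 measures (estimated counts, TPM and FPKM), in 18 of the 27 columns of their table. The deposited estimated counts carry no scaling between libraries, whereas the deposited TPM and FPKM values account for both transcript length and sequencing depth. The submitters' processing notes name HISAT2 2.2.1, Bowtie2 2.4.5, RSEM 1.3.1, GRCm38 and mm10, without their roles. How strand was treated is not given in the sources used here. All 48 values of the members were whole counts.

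The members and gene lists were chosen with earlier results of these data known. Estimated counts were rounded, filtered with filterByExpr, scaled by TMM and tested in R 4.3.3 with the quasi-likelihood F test of edgeR 4.0.16, with p-values adjusted by Benjamini-Hochberg over every gene tested. CPM values use the TMM-scaled totals. Each standard error is the log2 fold change divided by the root of F. The test against the ribosomal protein genes used TMM factors computed on these 79 genes alone. For the length and GC correction, mgcv 1.9.3 fitted each library's deviations as a smooth function of both, which entered the model as offsets. Of 17348 genes, 97.6% had both in GENCODE M21, and each gene's length was that of the coding transcript nearest to the length implied by its count and FPKM. Alternatives were RLE size factors, TMM factors without the members, ribosomal protein and translation factor genes, DESeq2 1.42.0, 2 other filters, the replicate number as a block, limma 3.58.1 on log2(TPM + 1) and log2(FPKM + 1), other references among the ribosomal protein genes, X and Y genes left out and each library left out. The GENCODE starts and the correction with Ctrl replicate 2 left out as well were added after seeing the data. The split into 2 features also rests on singling out Ctrl replicate 2 with these data known. Scripts were tested on simulated data.

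The genes named are the 8 members, Ybx1, of each list those past an adjusted p of 0.05 and the lowest and highest (any gene of lists up to 7), and the 5 most alike. Items withheld for evaluation are not reported here. Choroid plexus markers and the Y-linked genes come from marker lists and from chromosome names. Cox7a2l and Cox4i2 are the ends of their list, and Pabpc4 and Paip2 belong to a list of 7. The common biological coefficient of variation was 0.147, so counting error is a small part of the error at these depths. No pair of replicates was a duplicate (chi-square per degree of freedom 3.51 to 65.4). The other columns hold identifiers and group averages, and 0 columns of single samples went unused. The study's other sequencing experiments (E13.5 cortex, knockdown, RIP-seq) are not analysed here.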

Additional observations from a re-analysis of the deposited data

How the results depend on the processing

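Of the 18 alternatives for cKO against Ctrl, the directions of Rack1, Tpt1, Pabpc1, Naca, Btf3, Pfdn5 and Cox4i1 were kept in all. The cause of the changes below was not tested. DESeq2 called Tpt1 (-0.67), Rack1 (-1.05) and Pabpc1 (-0.42), and 93 genes in all where edgeR called 10. The length and GC correction called Tpt1 (-0.59), Rack1 (-0.98) and Pabpc1 (-0.45) and 217 genes, with a member median of -0.26. A change shared by short genes is partly taken up by this correction. With Ctrl replicate 2 left out as well, which was chosen after seeing the data, these were -0.51, -0.87 and -0.42, 259 genes passed, and the medians were -0.23 for the members and -0.38 for the ribosomal protein genes. Without X and Y genes 6 genes passed. With limma on log2(TPM + 1) or log2(FPKM + 1), 0 members passed an adjusted p of 0.05, while 11 and 8 genes did. On log2(TPM + 1) the median of all genes moved to 0.14 and that of the members to -0.20. Nap1l1 took the opposite sign, never past the threshold, in 7 of 18, namely without Ctrl replicate 2 (0.0084), without cKO replicate 1 (0.0034), without cKO replicate 2 (0.029), on log2(TPM + 1) (0.14), on log2(FPKM + 1) (0.033), without X and Y genes (0.0010) and with the correction and Ctrl replicate 2 left out (0.063).

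Leaving out 1 library at a time gave log2 fold changes of -0.78 to -0.48 for Tpt1, -1.20 to -0.84 for Rack1, -0.44 to -0.39 for Pabpc1, -0.34 to -0.19 for Naca, -0.28 to -0.01 for Btf3, -0.032 to 0.029 for Nap1l1, -0.58 to -0.22 for Pfdn5 and -0.47 to -0.0074 for Cox4i1. The member median ranged from -0.45 to -0.20 and the ribosomal protein median from -0.71 to -0.35, both nearest to 0 without Ctrl replicate 2. Between 8 and 122 genes passed, 122 without Ctrl replicate 2 and 19 without Ctrl replicate 3. Relative to the ribosomal protein genes, the ranges were -0.13 to -0.07 for Tpt1, -0.49 to -0.43 for Rack1, -0.050 to 0.24 for Pabpc1, 0.16 to 0.38 for Naca, 0.34 to 0.43 for Btf3, 0.36 to 0.68 for Nap1l1, 0.07 to 0.16 for Pfdn5 and 0.27 to 0.35 for Cox4i1. Nap1l1 also passed without Ctrl replicate 3 (0.68).

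The series' description speaks of 3 sequencing batches but ties none to a replicate number. Deviations from group means correlated at 0.0824, 0.0519 and 0.217 between same-numbered libraries, and Ctrl replicate 2 was most like cKO replicate 1, so the numbers were not taken to pair the samples. The replicate block alone changed no call on a member at an adjusted p of 0.05. The unadjusted p of Naca (-0.28) went from 0.0404 to 0.0766 by edgeR. With the block 11 genes passed, 10 of them shared. The replicate block with the length and GC correction gave -0.59 for Tpt1, -0.97 for Rack1 and -0.45 for Pabpc1, 246 genes and a member median of -0.26. Relative to the ribosomal protein genes this block gave -0.52 for Rack1, 0.34 for Btf3, 0.36 for Nap1l1, 0.35 for Cox4i1 and -0.0058 for Pabpc1, and the correction without it -0.53, 0.34, 0.36, 0.35 and -0.0058. Each member had at least 989 counts a library. The part of depth in the calls was not tested.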
